A study of Mus musculus with 17 samples.

Results

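Amino acid transporters move amino acids across the plasma membrane and across the membranes of lysosomes and vesicles. The group described here was every gene with a symbol of the Slc1a, Slc7a, Slc36a, Slc38a or Slc43a series, together with Slc3a1, Slc3a2, Slc6a6, Slc6a9 and Slc6a17, that had at least 1 transcript annotated as protein_coding. The rule took 46 of the 55357 genes in the deposited tables and used no measured value. One of the 46, Slc7a6os, matched by its symbol only and is not a transporter, and the antisense genes Slc36a1os and Slc36a3os were left out because they had no protein_coding transcript.

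The study asked how glucose and the RNA-binding protein PCBP2 shape gene expression in mouse pancreatic β cells. Islets of male mice were cultured for 3 days at 2.8 or 16.7 mM glucose, and β cells were then isolated by sorting for the tdTomato reporter. Control cells, called WT in the labels, carried the rat insulin promoter Cre (RIP-Cre) and the Rosa26-tdTomato reporter and had an intact Pcbp2, whereas PCBP2KO cells carried in addition the floxed Pcbp2 alleles (Pcbp2 Fl/Fl). All groups therefore shared the Cre and the reporter, and deletion could occur only where the insulin promoter drove Cre. There were 3 control samples at 2.8 mM, 4 control samples at 16.7 mM, 5 PCBP2KO samples at 2.8 mM and 5 PCBP2KO samples at 16.7 mM, and the age of the mice was not given in the sources used here. Nothing in the labels says that replicates came from separate animals, so the p-values below measure the spread between these samples, which may be technical.

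β cells take up amino acids both for the very large synthesis of insulin and as signals, since several amino acids stimulate insulin secretion. Some of the carriers work as pairs, in which a heavy chain of the Slc3 family brings a light chain of the Slc7 family to the cell surface. Others work alone, driven by sodium (Slc1, Slc6 and much of Slc38), by protons (Slc36) or by the gradient of the amino acid itself (Slc43 and the cationic carriers of Slc7), and a few sit on lysosomes, where amino acids are released and sensed by the mTORC1 pathway.

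Estimated counts summed to between 47385513 and 82419400 per sample. Pcbp2 was lower in every PCBP2KO sample than in every control sample at the same glucose, with 15.5 to 19.2 CPM against 50.7 to 73.4 CPM at 2.8 mM and up to about 10 CPM against 35.0 to 45.4 CPM at 16.7 mM. CPM are per-million counts, with the library size scaled by TMM. Summed CPM of 10 β cell markers ranged from 67300 to 123000 at 2.8 mM and from 272000 to 526000 at 16.7 mM, and because these few transcripts took a larger share of each high-glucose library, TPM (per-million transcript abundance, a level per length) is used below only within a sample or within a group. In 3 libraries at 16.7 mM, control replicate 4 and PCBP2KO replicates 4 and 5, the first principal component of log2 CPM was 9.9, 21.4 and 33.2, against at least 90.9 in the other libraries of their groups. Results that these 3 libraries changed are given with and without them. Endothelial markers summed to at most 1.15 CPM and stellate markers to at most 5.19 CPM, whereas α cell markers summed to 638 to 2570 CPM in control and 1470 to 9200 CPM in PCBP2KO cells at 2.8 mM, and to 262 to 1460 and 174 to 1320 CPM at 16.7 mM. The α cell sums were nearly all the glucagon gene Gcg, which alone had 1450 to 9160 CPM in PCBP2KO cells at 2.8 mM. Over all samples δ cell markers summed to 73.1 to 945 CPM, ductal markers to 384 to 1180 CPM and acinar markers to at most 23.6 CPM. In each group 1 or 2 of the 4 ductal markers stayed under 1 CPM. The pancreatic polypeptide gene Ppy had 797 to 835 CPM in control and 992 to 5110 CPM in PCBP2KO cells at 2.8 mM, and 224 to 631 and 290 to 1140 CPM at 16.7 mM. The 5 macrophage markers were also lower at 16.7 mM, with values given beside Slc7a7 below, and the part of these cells in the glucose results was not tested. Fewer cells of a type and less RNA per cell cannot be told apart in such bulk samples.

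Of the 46 members, 39 passed the filter on low counts and were tested among 22784 genes. The other 7, namely Slc1a6, Slc7a9, Slc7a10, Slc7a12, Slc7a13, Slc36a2 and Slc36a3, stayed at or under 0.191 CPM in every sample, and Slc7a12 had no counts in any sample. Per length, Slc3a2, the heavy chain known as 4F2hc or CD98, had the highest level of all members in control cells at 2.8 mM, with 404 ± 65.3 TPM (SD, n = 3). It was followed by Slc38a10 at 97.0 ± 19.9 TPM, the system A carrier Slc38a4 at 60.7 ± 9.10 TPM, the taurine carrier Slc6a6 at 54.0 ± 16.3 TPM and the light chain Slc7a8 (LAT2) at 44.3 ± 5.13 TPM. The range of Slc6a6 (35.6 to 66.3 TPM) overlapped those of Slc38a4 (50.5 to 67.8 TPM) and Slc7a8 (39.3 to 49.5 TPM), so its place in the order was not resolved.

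The top of the order was different at 16.7 mM. In control cells Slc38a10 reached 118 ± 17.8 TPM and Slc3a2 115 ± 33.4 TPM (n = 4), and in PCBP2KO cells they reached 93.0 ± 13.3 and 84.2 ± 15.8 TPM (n = 5), so at high glucose the group means did not differ beyond their spread. Within samples the order depended on the 3 libraries that stood apart. In these Slc38a10 was below Slc3a2, with 95.0 against 164 TPM in control replicate 4. PCBP2KO replicates 4 and 5 had 82.5 against 111 and 76.0 against 84.2 TPM. In every other sample at 16.7 mM Slc38a10 was above Slc3a2, with 131, 112 and 133 against 106, 87.3 and 105 TPM in control cells. Those of PCBP2KO cells had 96.0, 105 and 106 against 77.0, 73.1 and 75.1 TPM. At 2.8 mM in PCBP2KO cells Slc3a2 stood alone at 331 ± 42.5 TPM, with Slc38a10 next at 92.9 ± 25.0 TPM (n = 5). Thus the same 2 genes led the group in all 4 conditions.

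High glucose changed about as many transporters upward as downward in control cells. A gene was called when its p from the quasi-likelihood test of edgeR, adjusted by Benjamini-Hochberg over all 22784 genes, was under 0.05 and its fold change was over 1.5. By this rule 6 members rose, namely Slc6a17, Slc7a4, Slc38a4, Slc38a6, Slc38a8 and Slc38a10, and 5 fell, namely Slc1a4, Slc3a2, Slc6a9, Slc38a7 and Slc38a9. The 6 that rose were 15.4% of the tested members, beside 7.15% of all genes called higher, and the 5 that fell were 12.8%, beside 6.69% of all genes called lower. Groups did not overlap for 15 of the 39 members (38.5%), beside 24.1% of all genes. Without control replicate 2 at 2.8 mM the count of called members was 7, with 3 higher and 4 lower. The median log2 fold change was 0.26 over the tested members and 0.04 over all genes.

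In PCBP2KO cells 9 members rose and 5 fell with glucose. All 11 members called in control cells were also called in PCBP2KO cells in the same direction, and Slc7a3, Slc7a11 and Slc43a2 were called in addition. The 9 that rose were 23.1% of the tested members, beside 13.4% of all genes called higher, and the 5 that fell were 12.8%, beside 10.4% of all genes called lower, so the share that fell was close to the background. Groups did not overlap for 12 members (30.8%), beside 21.6% of all genes, and the median log2 fold change was 0.13 over the members and 0.01 over all genes. Scaling matters for this balance, because with scaling by total counts the median log2 fold change of all genes was -0.346 in control cells and -0.465 in PCBP2KO cells, in place of 0.04 and 0.01. With that scaling the split of called members was 3 higher and 8 lower in control cells and 4 higher and 9 lower in PCBP2KO cells, so the directions above are relative to the bulk of genes.

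**Figure D1:**
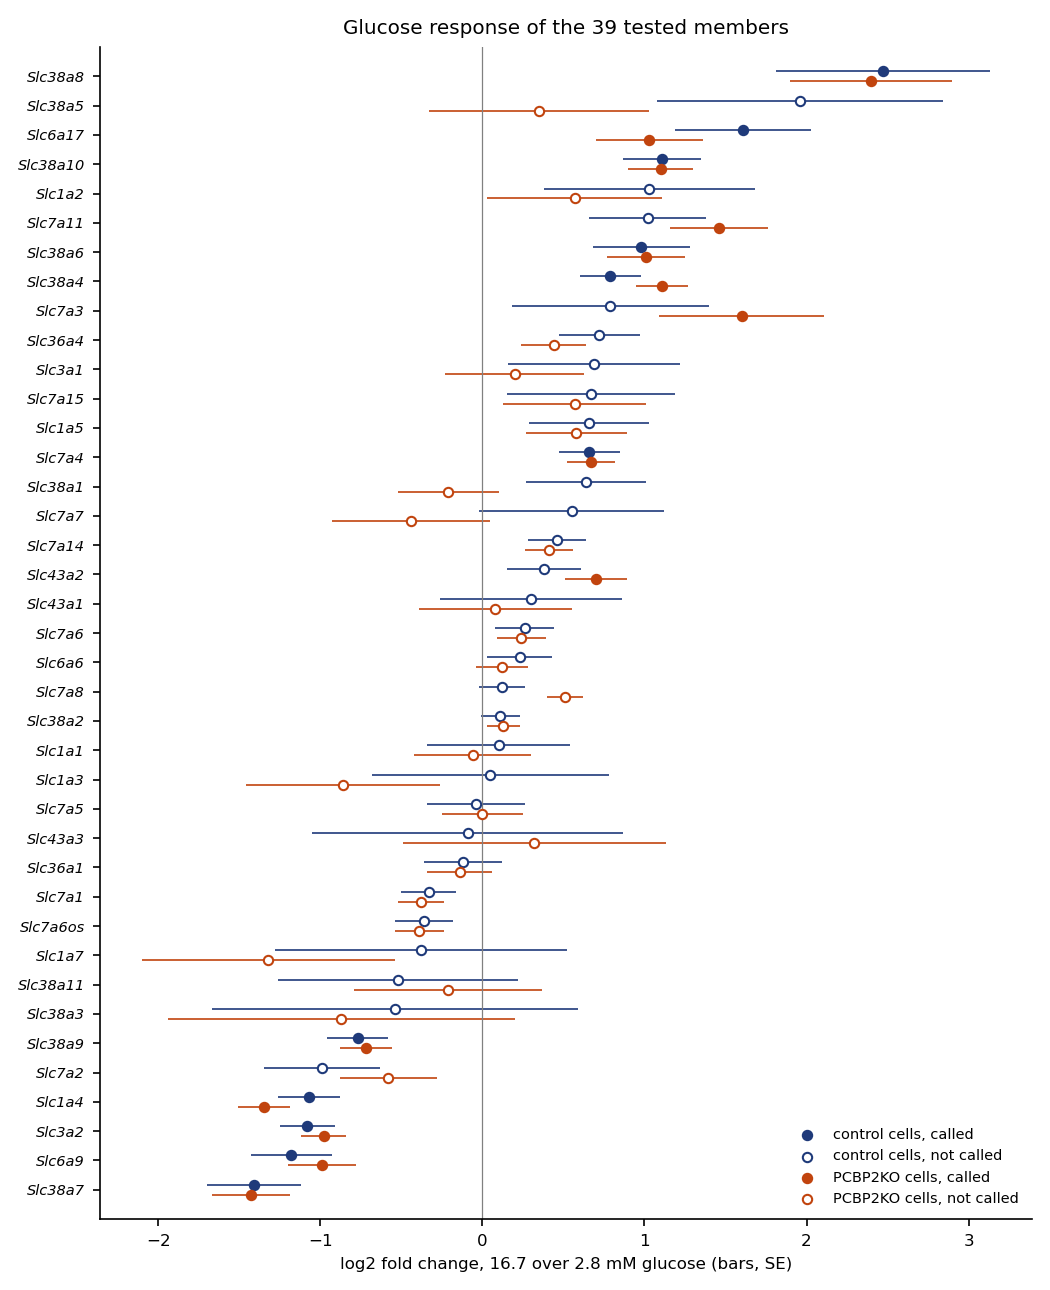
Log2 fold change of each of the 39 tested members between 16.7 and 2.8 mM glucose (horizontal axis, bars give the SE derived from the F of the edgeR test), in control cells (blue) and PCBP2KO cells (orange), with filled points for called members. All 11 members with a filled blue point also have a filled orange point on the same side of 0, and Slc7a3, Slc7a11 and Slc43a2 are filled in orange only.

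Among the heavy chains, Slc3a2 fell by about 2-fold in each genotype. It lies on chromosome 19 (8684245 to 8701108, minus strand, GRCm39). It measured 727, 714 and 483 CPM in the control samples at 2.8 mM and 359, 246, 268 and 340 CPM at 16.7 mM, and every high-glucose sample was below every low-glucose sample. PCBP2KO samples had 523, 431, 441, 495 and 453 CPM at 2.8 mM and 247, 201, 227, 288 and 227 CPM at 16.7 mM, again without overlap. The log2 fold change was -1.08 ± 0.17 (SE, adjusted p = 0.000839) in control cells and -0.98 ± 0.14 (adjusted p = 7.58e-05) in PCBP2KO cells by edgeR. The call held without any single library. The other heavy chain, Slc3a1 (rBAT), which in kidney pairs with Slc7a9 to recover cystine and basic amino acids, stayed between 0.352 and 2.42 CPM over all samples. Its log2 fold change with glucose was 0.69 in control cells and 0.20 in PCBP2KO cells, and neither passed the test.

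None of the light chains that pair with Slc3a2 was called lower with glucose. Slc7a5 (LAT1), the exchanger of large neutral amino acids, measured 69.1, 73.7 and 113 CPM in control cells at 2.8 mM and 54.8, 38.8, 131 and 107 CPM at 16.7 mM, with overlapping groups. PCBP2KO samples ranged from 81.5 to 125 CPM at 2.8 mM and from 93.0 to 114 CPM at 16.7 mM. Its log2 fold changes of -0.04 ± 0.30 and 0.00 ± 0.25 did not pass the test. Slc7a8 had a log2 fold change of 0.12 in control cells and 0.51 ± 0.11 in PCBP2KO cells (adjusted p = 0.0023), the latter under the minimum fold. Slc7a6 (y+LAT2) had log2 fold changes of 0.26 and 0.24, and the levels of Slc7a15 stayed at or under 0.730 CPM.

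The balance of heavy to light chains can be read within each sample as a ratio of TPM, which needs no scaling between libraries. Slc3a2 was divided by the sum of 6 partners (Slc7a5, Slc7a6, Slc7a7, Slc7a8, Slc7a10 and Slc7a11). In control cells the ratio was 4.97, 5.64 and 3.06 at 2.8 mM and 2.19, 2.05, 1.32 and 2.27 at 16.7 mM. In PCBP2KO cells it was 4.40, 3.94, 3.54, 4.12 and 3.87 at 2.8 mM and 1.62, 1.38, 1.59, 2.17 and 1.74 at 16.7 mM. Every sample at 2.8 mM was above every sample at 16.7 mM, and heavy chain transcripts still outnumbered those of the summed partners in each of the 17 samples. These ratios are given as a description with no test.

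**Figure D2:**
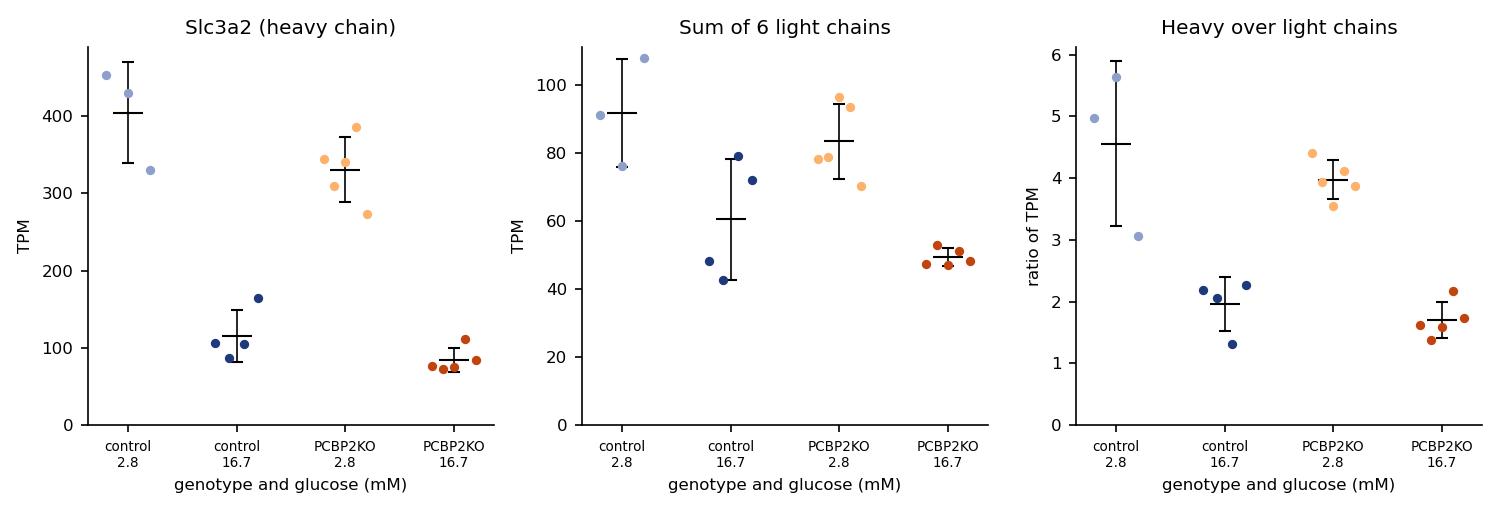
TPM of the heavy chain Slc3a2, summed TPM of its 6 light chain partners, and their ratio in each sample (points), with mean and SD per group, by genotype and glucose in mM. The ratio lies between 3.06 and 5.64 in samples at 2.8 mM and between 1.32 and 2.27 in samples at 16.7 mM. The TPM panels are not scaled between libraries, so only the ratio is meant to be compared between groups.

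Slc7a11 (xCT), the light chain that exchanges extracellular cystine for glutamate and so feeds glutathione synthesis, rose in PCBP2KO cells. It measured 3.07, 3.89 and 3.85 CPM in control cells at 2.8 mM and 7.57, 7.48, 8.74 and 5.51 CPM at 16.7 mM. The values in PCBP2KO cells were 2.22, 2.73, 1.41, 2.36 and 1.48 CPM at 2.8 mM and 7.73, 6.92, 6.53, 4.96 and 1.93 CPM at 16.7 mM. The control groups did not overlap, and in PCBP2KO cells the only high-glucose sample within the low-glucose range was replicate 5, one of the 3 libraries that stood apart. By edgeR the log2 fold change was 1.46 ± 0.30 in PCBP2KO cells (adjusted p = 0.00129). In control cells it was 1.02 ± 0.36 (adjusted p = 0.063), which became a call with the replicate number as a block (1.14, adjusted p = 0.0161), without control replicate 4 at 16.7 mM (1.15, adjusted p = 0.038) and without the 3 libraries that stood apart (1.12, adjusted p = 0.00441). All 3 of these settings set aside control replicate 4 at 16.7 mM, which has no partner in the block fit. They are therefore not separate checks. With that replicate kept, the control change was called by edgeR when only the compared groups were fitted (1.03, adjusted p = 0.027) and by DESeq2 (1.02, adjusted p = 0.0267). The other settings that kept it did not call Slc7a11 in control cells. The difference between the genotypes, 0.44 ± 0.46, did not pass the test.

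The stretch upstream of the Slc7a11 start held a motif of the amino acid response. The C/EBP-ATF response element (CARE), to which the transcription factor ATF4 is known to bind in genes that answer amino acid shortage, was searched as TGATGNAA on both strands in the 250 bases before and 50 bases after the start of each gene's most abundant transcript. It was found in 748 of 22598 such windows (3.31%) and in 2 of 39 members (5.13%), Slc7a11 and Slc38a1. Slc7a11 held a pair of matches on opposite strands, with their first bases 65 and 46 bases before the start. The stretch of 120 bases before the start is printed below from GRCm39 with motif letters in capitals. Beside it is that of Slc3a2, which changed in the opposite direction, before the start of its transcript Slc3a2-207. The window of Slc3a2-207 had no match to this motif or to the E-box CACGTG. This transcript has 909 coding bases. Slc3a2-201 and Slc3a2-202, with 1578 and 1695 coding bases, start farther upstream, at 8691243 and 8700742. Those 2 starts were not searched.
Slc7a11 (chr3:50398064-50398183, minus strand): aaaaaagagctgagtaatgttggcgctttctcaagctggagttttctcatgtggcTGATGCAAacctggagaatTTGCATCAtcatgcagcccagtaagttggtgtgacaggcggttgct
Slc3a2 (chr19:8690350-8690469, minus strand): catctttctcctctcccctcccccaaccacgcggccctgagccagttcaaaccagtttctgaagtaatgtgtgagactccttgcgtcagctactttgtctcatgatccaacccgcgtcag

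None of the 6 members called higher and none of the 5 called lower in both genotypes held the CARE letters in this window. The E-box was found in 8 of the 39 tested members (20.5%) and in 1761 of all 22598 windows (7.79%). Of the 11 members called in both genotypes, 1 held it, Slc38a7, at a position after the start. These counts are for the start of each gene's most abundant transcript only. A match is a description of the sequence and does not show binding.

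Of the 5 tested members grouped as cationic carriers, which bring in arginine, lysine and ornithine, 1 was called higher in control cells and 2 in PCBP2KO cells, beside 7.15 and 13.4% of all genes. None of these carriers was called lower by the rule above, although the estimates of Slc7a1 and Slc7a2 were below 0. Slc7a4, a relative of these carriers, rose from 63.9, 46.7 and 59.9 CPM to 115, 81.5, 87.3 and 74.3 CPM in control cells. PCBP2KO samples went from 53.5, 38.9, 49.7, 59.5 and 40.9 CPM to 92.4, 73.1, 88.2, 67.5 and 65.9 CPM. Groups did not overlap in either genotype, and the log2 fold change was 0.66 ± 0.19 (adjusted p = 0.0236) in control and 0.67 ± 0.15 (adjusted p = 0.00279) in PCBP2KO cells by edgeR. The control call was lost without control replicate 1 at 16.7 mM (0.51, adjusted p = 0.0749) or without control replicate 2 at 2.8 mM (0.53, adjusted p = 0.136). Both calls were lost with total-count scaling, at 0.25 and 0.18.

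Slc7a3 (CAT3) spread widely. It measured 7.15, 21.9 and 6.93 CPM in control cells at 2.8 mM and 23.7, 29.9, 16.4 and 12.6 CPM at 16.7 mM, with overlap. In PCBP2KO cells it measured 4.80, 7.88, 4.61, 4.68 and 2.40 CPM at 2.8 mM and 19.7, 21.8, 19.9, 11.1 and 1.57 CPM at 16.7 mM, where replicate 5 lay below the low-glucose samples. The log2 fold change of 1.60 ± 0.51 in PCBP2KO cells was called (adjusted p = 0.0234 by edgeR), and that of 0.79 ± 0.61 in control cells was not. The PCBP2KO call was lost when replicate 1 (1.48, adjusted p = 0.0543), 2 (1.42, adjusted p = 0.0604) or 3 (1.47, adjusted p = 0.0552) at 16.7 mM or replicate 5 at 2.8 mM (1.43, adjusted p = 0.0573) was left out, and with total-count scaling (1.08, adjusted p = 0.0794).

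For Slc7a2 (CAT2) the call depended on the setting. Control cells had 201, 158 and 173 CPM at 2.8 mM and 94.5, 61.2, 72.4 and 128 CPM at 16.7 mM, with no overlap. PCBP2KO cells had 254, 265, 192, 212 and 143 CPM at 2.8 mM and 104, 75.1, 106, 130 and 297 CPM at 16.7 mM, where replicate 5 was above every other sample. With all libraries the log2 fold changes of -0.99 (adjusted p = 0.0666) and -0.58 (adjusted p = 0.158) missed the threshold. Without the 3 libraries both were called, at -1.24 (adjusted p = 0.000889) and -1.20 (adjusted p = 0.000334). In control cells the call was also made with the replicate block (-1.24, adjusted p = 0.0322) and without control replicate 4 at 16.7 mM (-1.20, adjusted p = 0.0286), and in PCBP2KO cells without replicate 5 at 16.7 mM (-1.04, adjusted p = 0.00175). In control cells each of these settings set aside replicate 4 at 16.7 mM, so they are not separate checks. With all libraries kept, total-count scaling called Slc7a2 lower in both genotypes (-1.35, adjusted p = 0.0208, and -1.02, adjusted p = 0.0217), and in control cells so did the fit of the compared groups alone (-0.99, adjusted p = 0.0289) and the fit without a filter (-1.02, adjusted p = 0.0288). Slc7a1 (CAT1), the widespread arginine carrier, had log2 fold changes of -0.33 and -0.38, under the minimum fold, and total-count scaling called it lower at -0.73 and -0.86. Slc7a14, a lysosomal relative, had values of 0.46 and 0.41, also under the minimum fold.

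The Slc38 family, the largest in the group, had 4 of 11 tested members called higher and 2 called lower in each genotype. Of all genes 7.15% were called higher and 6.69% lower in control cells, and 13.4 and 10.4% in PCBP2KO cells. Slc38a10, on chromosome 11 (119994770 to 120042189, minus strand), measured 335, 236 and 326 CPM in control cells at 2.8 mM and 872, 603, 707 and 399 CPM at 16.7 mM. PCBP2KO samples had 248, 218, 271, 309 and 202 CPM at 2.8 mM and 613, 587, 636, 418 and 413 CPM at 16.7 mM. No groups overlapped between glucose levels, and the lowest high-glucose values came from the 3 libraries that stood apart. The log2 fold change was 1.11 ± 0.24 (adjusted p = 0.00569) in control and 1.10 ± 0.20 (adjusted p = 0.00043) in PCBP2KO cells by edgeR, and the call held without any single library.

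Slc38a4 (SNAT4) is a system A carrier that is known to be imprinted in mouse. It measured 202, 160 and 201 CPM in control cells at 2.8 mM and 345, 296, 367 and 288 CPM at 16.7 mM. The values in PCBP2KO cells were 207, 157, 185, 190 and 107 CPM at 2.8 mM and 426, 345, 408, 298 and 355 CPM at 16.7 mM. The groups were well apart, with log2 fold changes of 0.79 ± 0.19 (adjusted p = 0.0108) and 1.11 ± 0.16 (adjusted p = 6.33e-05) by edgeR. In control cells the call was lost without control replicate 2 at 2.8 mM (0.68, adjusted p = 0.0729) and with total-count scaling (0.39, adjusted p = 0.148).

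Within Slc38a4 the share of the starts also differed between glucose levels. The transcript Slc38a4-201, whose start lies 36.0 kb upstream of that of the main transcript Slc38a4-205 and whose coding sequence is the same, took 2.27, 1.94 and 2.17% of the gene's estimated counts in control cells at 2.8 mM and 10.4, 9.68, 6.6 and 7.83% at 16.7 mM. Its share in PCBP2KO cells was 3.18 to 5.79% at 2.8 mM and 7.83 to 12.8% at 16.7 mM. Every high-glucose sample was above every low-glucose sample, although the transcript remained a minor one. Shares of transcripts rest on how reads shared between transcripts were divided, and no test was run on them. The 120 bases before each of the 2 starts, neither of which holds a CARE or an E-box match, are printed because they are different sequences that lead to the same protein.
Slc38a4-205 (chr15:96917854-96917973, GRCm39, minus strand): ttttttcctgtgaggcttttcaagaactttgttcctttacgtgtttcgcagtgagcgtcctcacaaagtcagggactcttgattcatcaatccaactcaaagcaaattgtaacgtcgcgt
Slc38a4-201 (chr15:96953850-96953969, GRCm39, minus strand): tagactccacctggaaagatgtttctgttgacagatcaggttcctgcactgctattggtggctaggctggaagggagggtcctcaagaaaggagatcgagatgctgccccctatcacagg

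Slc38a6 rose by about 2-fold in both genotypes. It measured 13.0, 17.3 and 28.4 CPM in control cells at 2.8 mM and 27.7, 31.6, 64.8 and 30.5 CPM at 16.7 mM, where replicate 3 was far above the rest and replicate 1 lay within the low-glucose range. In PCBP2KO cells it measured 12.4, 12.9, 14.6, 14.1 and 9.66 CPM at 2.8 mM and 26.9, 26.4, 33.7, 22.6 and 18.5 CPM at 16.7 mM, without overlap. By edgeR the log2 fold changes were 0.98 ± 0.30 (adjusted p = 0.0324) and 1.01 ± 0.24 (adjusted p = 0.00434) by edgeR. In control cells the call was lost without control replicate 3 at 16.7 mM (0.61, adjusted p = 0.129) and without control replicate 1 (0.76, adjusted p = 0.16) or 2 (0.90, adjusted p = 0.134) at 2.8 mM. With total-count scaling the values were 0.59 and 0.51 and neither was called.

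Slc38a8, a glutamine carrier known from the nervous system and retina, had the largest glucose fold change of the called members but from a very low level. Control cells had 0.0579, 0.206 and 0.164 CPM at 2.8 mM and 0.695, 1.5, 0.487 and 0.513 CPM at 16.7 mM, that is 5 to 16 against 29 to 84 estimated counts. PCBP2KO cells had 0.201 to 0.499 CPM at 2.8 mM and 0.488 to 3.22 CPM at 16.7 mM, where replicate 5 lay inside the low-glucose range. The log2 fold changes were 2.47 ± 0.66 (adjusted p = 0.0161) and 2.40 ± 0.50 (adjusted p = 0.00151) by edgeR. The control call was lost without control replicate 2 at 16.7 mM (1.97, adjusted p = 0.0587) or without control replicate 1 at 2.8 mM (2.10, adjusted p = 0.0815).

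The 2 members of the family that fell are both known from lysosomes. Slc38a7 (SNAT7), which exports glutamine from lysosomes, measured 91.1, 87.5 and 63.4 CPM in control cells at 2.8 mM and 27.2, 21.3, 26.6 and 46.3 CPM at 16.7 mM. PCBP2KO samples had 57.5, 52.6, 50.4, 56.8 and 50.3 CPM at 2.8 mM and 14.5, 12.8, 16.9, 34.7 and 20.6 CPM at 16.7 mM. Neither genotype showed overlap between glucose levels, and the highest high-glucose value of each genotype came from a library that stood apart. The log2 fold change was -1.41 ± 0.29 (adjusted p = 0.0038) in control and -1.43 ± 0.24 (adjusted p = 0.000278) in PCBP2KO cells by edgeR, and both calls held without any single library.

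Slc38a9, the lysosomal carrier that senses arginine for mTORC1, measured 11.1, 13.4 and 12.3 CPM in control cells at 2.8 mM and 4.72, 8.64, 6.67 and 8.76 CPM at 16.7 mM. The values in PCBP2KO cells were 11.1 to 14.8 CPM at 2.8 mM and 7.28 to 9.15 CPM at 16.7 mM. Both genotypes were without overlap, and the log2 fold changes were -0.77 ± 0.19 (adjusted p = 0.0122) and -0.72 ± 0.16 (adjusted p = 0.00248) by edgeR. The control call was lost without control replicate 2 at 2.8 mM (-0.71, adjusted p = 0.0667). In the proton-coupled family, Slc36a4 had higher values at high glucose, with 41.1, 35.1 and 42.7 CPM against 61.6, 59.5, 81.2 and 58.0 CPM in control cells and 22.2 to 40.0 CPM against 24.3 to 57.4 CPM in PCBP2KO cells. Its log2 fold changes of 0.72 (adjusted p = 0.0566) and 0.44 (adjusted p = 0.11) were not called. In control cells it was called with the replicate block (0.76, adjusted p = 0.00365) and without replicate 4 at 16.7 mM (0.78, adjusted p = 0.042), in PCBP2KO cells without replicate 5 at 16.7 mM (0.60, adjusted p = 0.0104), and in both without the 3 libraries that stood apart (0.74, adjusted p = 0.00977, and 0.67, adjusted p = 0.00574). In control cells each of these settings set aside replicate 4 at 16.7 mM, so they are not separate checks. With that replicate kept, edgeR called Slc36a4 in control cells when only the compared groups were fitted (0.72, adjusted p = 0.0265). It also did so with counts rebuilt from TPM (0.69, adjusted p = 0.0483) and on protein_coding transcripts (0.75, adjusted p = 0.0381). DESeq2 called it as well (0.72, adjusted p = 0.0391), and the other settings that kept this replicate did not. Slc36a1, the better known lysosomal member, stayed between 4.08 and 7.84 CPM, with log2 fold changes of -0.12 and -0.14.

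Slc38a2 (SNAT2), the system A carrier that many cells induce when amino acids run short, had similar levels at both glucose concentrations under the scaling used. It measured 145, 133 and 138 CPM in control cells at 2.8 mM and 145, 130, 171 and 152 CPM at 16.7 mM, and in PCBP2KO cells 135 to 161 CPM and 136 to 176 CPM. All 4 groups overlapped, and the log2 fold changes were 0.11 ± 0.12 and 0.13 ± 0.10, neither of which passed the test. With total-count scaling their sign turned, to -0.27 and -0.36. Slc38a1 stayed at or under 1.19 CPM, Slc38a3 at or under 0.396 CPM and Slc38a11 at or under 1.53 CPM, and none of them was called in any comparison. Slc38a5 (SNAT5), a glutamine carrier, spread from 1.34 to 41.4 CPM over all samples, and its log2 fold changes with glucose of 1.96 ± 0.88 (adjusted p = 0.146) and 0.35 ± 0.68 (adjusted p = 0.758) were not called.

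Of the neutral amino acid exchangers of the Slc1 family, Slc1a4 (ASCT1), which carries alanine, serine and cysteine, fell by more than 2-fold. It measured 118, 89.9 and 78.7 CPM in control cells at 2.8 mM and 44.4, 35.1, 40.2 and 61.9 CPM at 16.7 mM. In PCBP2KO cells it measured 97.9, 91.5, 92.9, 96.8 and 117 CPM at 2.8 mM and 38, 38.4, 31.2, 51.3 and 36.0 CPM at 16.7 mM. No high-glucose sample reached the low-glucose range, and the log2 fold change was -1.07 ± 0.19 (adjusted p = 0.00186) in control and -1.35 ± 0.16 (adjusted p = 1.71e-05) in PCBP2KO cells by edgeR, the smallest adjusted p of any member for glucose in PCBP2KO cells. The calls held without any single library.

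Its relative Slc1a5 (ASCT2), the main glutamine importer of many dividing cells, was scarce in these β cells. It measured 3.87, 6.19 and 3.00 CPM in control cells at 2.8 mM and 9.24, 7.13, 6.10 and 5.04 CPM at 16.7 mM, and in PCBP2KO cells 2.43 to 6.86 CPM and 3.68 to 8.30 CPM, with overlap in both. The log2 fold changes of 0.66 (adjusted p = 0.258) and 0.58 (adjusted p = 0.17) were not called, although without PCBP2KO replicate 2 at 2.8 mM the latter was 0.92 (adjusted p = 0.0207). The glutamate carriers of the family, Slc1a1, Slc1a2, Slc1a3 and Slc1a7, stayed at or under 1.56 CPM and none was called.

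Among the Slc6 members, Slc6a17 (NTT4), which loads neutral amino acids into synaptic vesicles, rose. It measured 8.24, 13.2 and 8.50 CPM in control cells at 2.8 mM and 35.4, 45.2, 29.0 and 11.9 CPM at 16.7 mM. PCBP2KO samples had 12.6, 15.7, 11.9, 11.5 and 12.8 CPM at 2.8 mM and 33.1, 41.0, 31.3, 14.3 and 11.6 CPM at 16.7 mM. The 3 high-glucose values that stayed within the low-glucose ranges were those of the 3 libraries that stood apart. The log2 fold change was 1.61 ± 0.42 (adjusted p = 0.0149) in control and 1.03 ± 0.33 (adjusted p = 0.0267) in PCBP2KO cells by edgeR, and without those libraries it was 1.85 (adjusted p = 2.22e-05) and 1.41 (adjusted p = 2.28e-05).

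The calls for Slc6a17 were sensitive to single libraries. In control cells the call was lost without replicate 2 at 16.7 mM (1.35, adjusted p = 0.0512) and without replicate 1 (1.48, adjusted p = 0.0711) or 3 (1.5, adjusted p = 0.0567) at 2.8 mM. In PCBP2KO cells it was lost without any one of 6 libraries, replicates 1, 2 and 3 at 16.7 mM (0.93, 0.81 and 0.95, highest adjusted p = 0.0898) and replicates 1, 3 and 4 at 2.8 mM (1.02, 1.00 and 0.99). Transcripts annotated as protein_coding made up a median of only 59.2% of the counts of Slc6a17 in control cells at 2.8 mM and 42.2% at 16.7 mM, and 45.0 and 35.1% in PCBP2KO cells, with the rest on retained-intron, nonsense-mediated decay and processed transcripts. On protein_coding transcripts alone the PCBP2KO change was 0.74 (adjusted p = 0.0736), and with total-count scaling it was 0.51 (adjusted p = 0.181), neither of them called.

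Slc6a9 (GLYT1), the glycine carrier, fell. It measured 12, 14 and 9.66 CPM in control cells at 2.8 mM and 5.32, 4.86, 3.63 and 7.16 CPM at 16.7 mM, and in PCBP2KO cells 8.67 to 10.3 CPM and 3.44 to 7.25 CPM. The groups did not overlap in either genotype, and the log2 fold changes were -1.18 ± 0.25 (adjusted p = 0.00441) and -0.99 ± 0.21 (adjusted p = 0.00144) by edgeR. Slc6a6, the taurine carrier, ranged from 101 to 205 CPM over all samples, and its log2 fold changes of 0.23 and 0.12 did not pass the test.

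**Figure D3:**
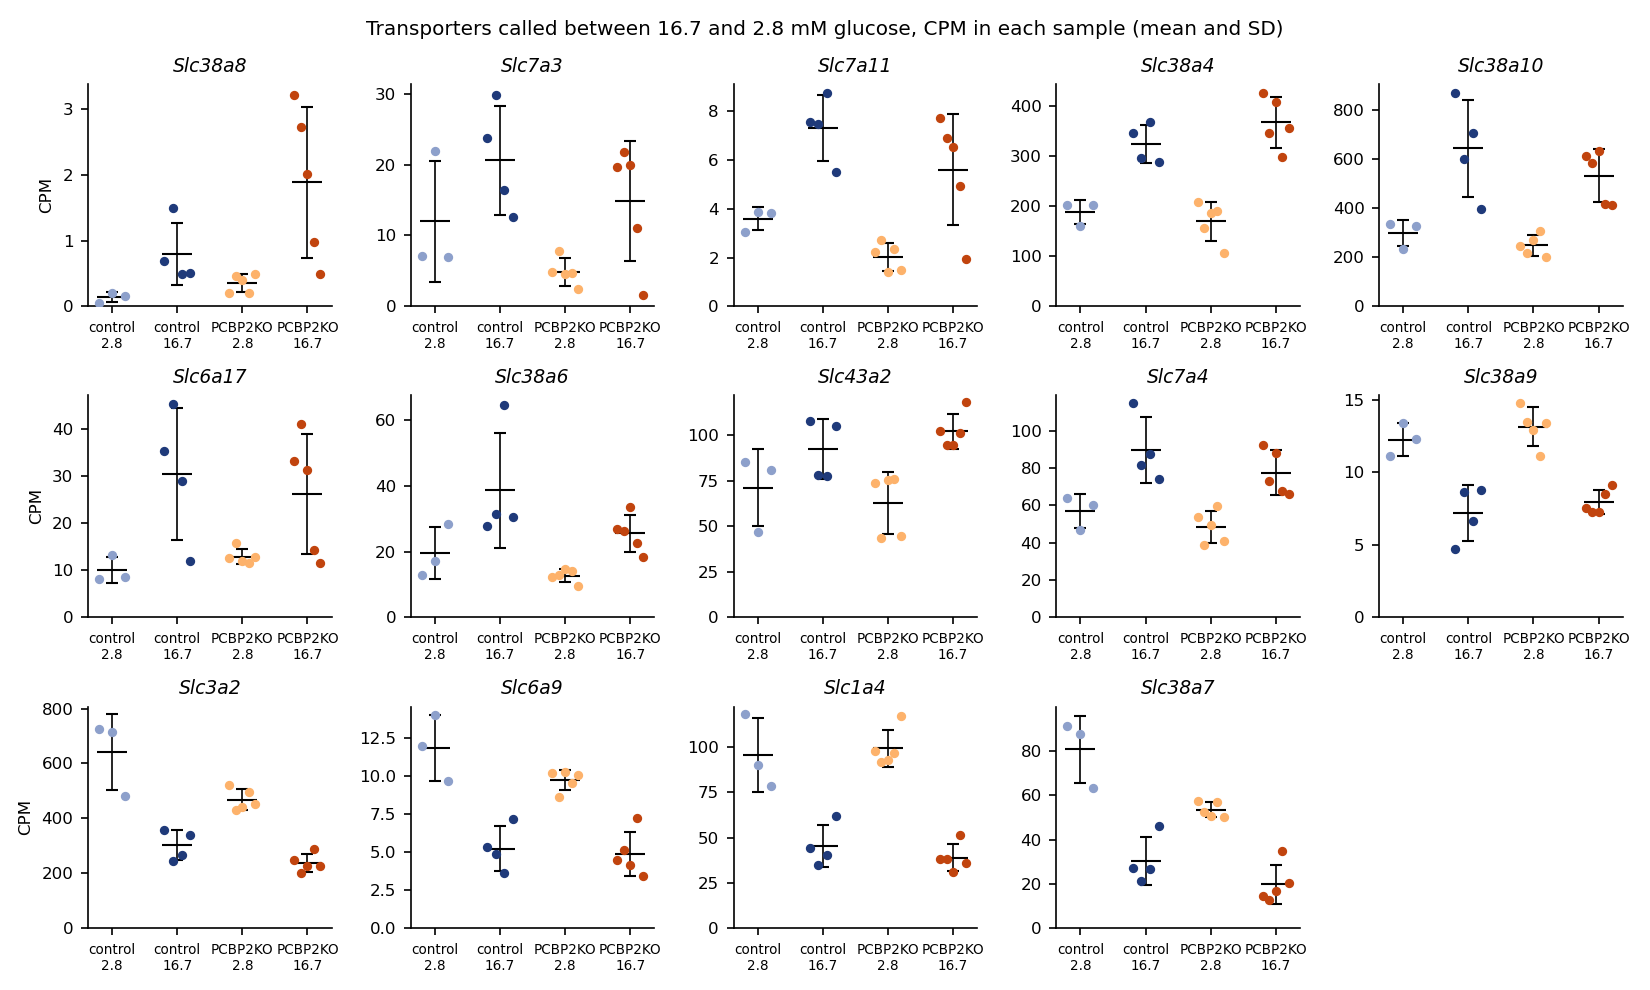
CPM in each sample (points) of the 14 members called between 16.7 and 2.8 mM glucose in at least 1 genotype, with mean and SD per group; each panel starts at 0 and is ordered by the log2 fold change in PCBP2KO cells. The panels from Slc38a8 to Slc7a4 rise and those from Slc38a9 to Slc38a7 fall with glucose in PCBP2KO cells.

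Slc43a2 (LAT4), which carries branched-chain amino acids and other large neutral ones without a partner, had a small change in level and a larger one in its transcripts. It measured 85.5, 47.0 and 80.8 CPM in control cells at 2.8 mM and 108, 78.0, 77.8 and 105 CPM at 16.7 mM. The values in PCBP2KO cells were 73.7, 43.3, 75.5, 75.8 and 44.6 CPM at 2.8 mM and 102, 94.8, 94.4, 101 and 118 CPM at 16.7 mM. The control groups overlapped and the PCBP2KO groups did not, with log2 fold changes of 0.38 ± 0.23 (adjusted p = 0.303) and 0.70 ± 0.19 (adjusted p = 0.00914) by edgeR. The latter call was lost without the 3 libraries that stood apart (0.59, adjusted p = 0.059) and with total-count scaling (0.22, adjusted p = 0.428).

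The transcripts Slc43a2-201 (6891 bases) and Slc43a2-202 (3236 bases) have the same start and the same coding sequence, and the longer one ends farther downstream, at position 75468401 of chromosome 11 against 75464709. The longer took 29.8, 27.0 and 29.8% of the gene's estimated counts in control cells at 2.8 mM and 45.4, 56.4, 64.3 and 58.7% at 16.7 mM. The shorter took 33.6, 29.7 and 31.0% and then 16.1, 9.96, 7.98 and 14.7%. In PCBP2KO cells the longer went from 13.5 to 29.5% at 2.8 mM to 44.6 to 56.5% at 16.7 mM, and the shorter from 33.0 to 43.5% to 12.2 to 21.0%. For both transcripts and in both genotypes the groups at the 2 glucose levels did not overlap, with more of Slc43a2-201 and less of Slc43a2-202 at high glucose. A further transcript with the same coding sequence, which starts at 75422833 and ends at 75468396, next to the longer end, took 35.0 to 42.1% in control cells at 2.8 mM and 25.7 to 36.8% at 16.7 mM. The summed share of this transcript and Slc43a2-201 was 64.8 to 69.1% at 2.8 mM and 82.2 to 91.0% at 16.7 mM in control cells. The sum in PCBP2KO cells was 53.7 to 65.3% and 77.8 to 85.6%, so the longer 3′ end held the majority of counts already at low glucose. These shares are of estimated counts, to which a longer transcript adds more reads per molecule, and they were not tested. The other members of the family, Slc43a1 and Slc43a3, stayed at or under 0.308 CPM.

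**Figure D4:**
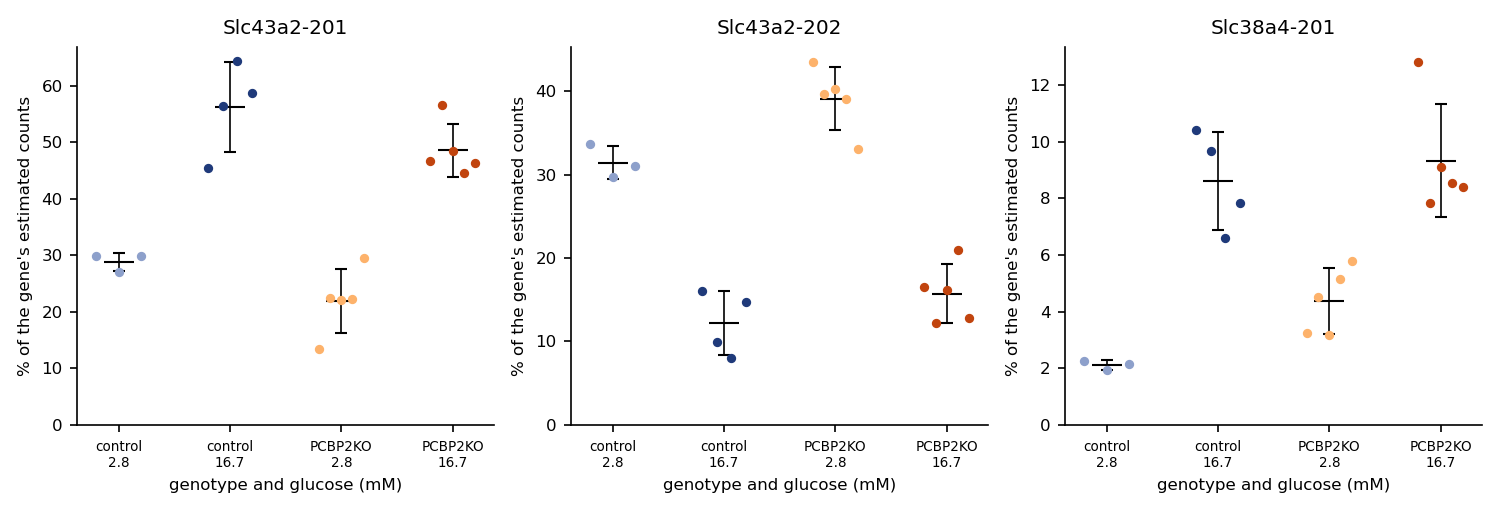
Share of the gene's estimated counts (percent, vertical axis) on the long Slc43a2-201, the short Slc43a2-202 and the upstream-start transcript Slc38a4-201 in each sample (points), with mean and SD per group, by genotype and glucose in mM. Slc43a2-201 lies between 13.5 and 29.8% at 2.8 mM and between 44.6 and 64.3% at 16.7 mM, while Slc43a2-202 moves the opposite way.

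The comparison of genotypes asked which transporters depend on PCBP2, and 1 member was called. Slc7a7 (y+LAT1), the light chain that with Slc3a2 exports arginine and lysine in exchange for neutral amino acids, was lower in PCBP2KO cells at both glucose levels. It lies on chromosome 14 (54606895 to 54655603, minus strand). It measured 13.1, 6.11 and 27.1 CPM in control cells and 1.26, 0.387, 1.19, 1.37 and 2.18 CPM in PCBP2KO cells at 2.8 mM. At 16.7 mM it measured 14.7, 18.7, 47.2 and 9.80 CPM in control cells and 0.958, 1.56, 1.12, 0.603 and 0.488 CPM in PCBP2KO cells. Every PCBP2KO sample was below every control sample, and control cells also differed among themselves by more than 4-fold at each glucose level.

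The log2 fold change of Slc7a7 was -3.59 ± 0.55 (adjusted p = 0.000901) at 2.8 mM and -4.58 ± 0.56 (adjusted p = 0.000105) at 16.7 mM by edgeR. Without single libraries it ranged from -3.97 to -2.91 and from -4.85 to -3.93 and stayed called throughout. The 1 member called was 2.56% of the tested members at each glucose level, beside 2.04% of all genes called in either direction at 2.8 mM and 1.71% at 16.7 mM, so the group as a whole was at the background. Groups did not overlap for 5 members at 2.8 mM (12.8%, beside 10.9% of all genes) and for 2 at 16.7 mM (5.13%, beside 4.49%). Slc7a7 is also a gene of macrophages, and the 5 macrophage markers summed to 18.8 to 68.9 CPM in control and 27.5 to 157 CPM in PCBP2KO cells at 2.8 mM, and to 2.44 to 15.5 and 1.71 to 13.9 CPM at 16.7 mM. The ranges of the marker sum overlapped between genotypes at each glucose level, and the part of macrophages in the Slc7a7 values was not tested. With glucose, Slc7a7 had a log2 fold change of 0.55 ± 0.57 in control cells, which did not pass the test.

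**Figure D5:**
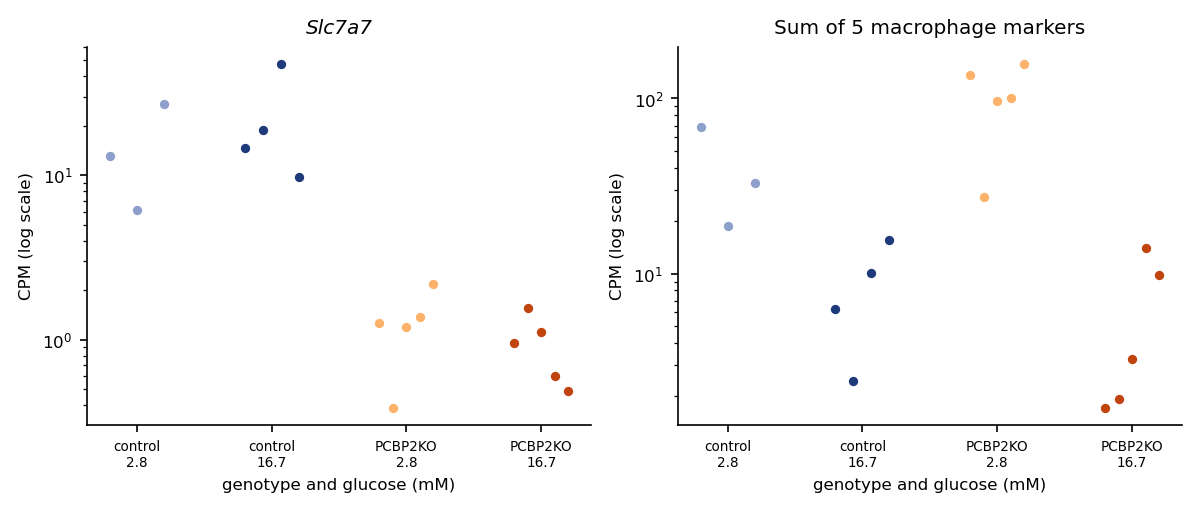
CPM of Slc7a7 (left) and summed CPM of 5 macrophage markers (right) in each sample (points), on log axes, by genotype and glucose in mM. Slc7a7 lies between 6.11 and 47.2 CPM in control samples and between 0.387 and 2.18 CPM in PCBP2KO samples, and the macrophage marker sums of the genotypes overlap at each glucose level.

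In control cells the counts of Slc7a7 came mainly from the transcripts Slc7a7-201 (median 49.7% at 2.8 mM and 69.8% at 16.7 mM) and Slc7a7-202 (46.7 and 23.1%), which differ in their start and share 1 coding sequence. In PCBP2KO cells the gene held only 33 to 218 estimated counts per sample, too few to compare its transcripts. Its neighbour in the group, Slc7a8, lies 304.0 kb away on the same chromosome and measured a log2 fold change of -0.48 (adjusted p = 0.064) at 2.8 mM and -0.09 at 16.7 mM.

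For the other members the errors of the genotype comparison allow only a coarse statement. At 2.8 mM the members without overlap besides Slc7a7 were Slc7a8, Slc7a11 (-0.82 ± 0.33, adjusted p = 0.287), Slc38a3 and Slc38a7 (-0.59 ± 0.27, adjusted p = 0.363), each lower in PCBP2KO cells and none called. At 16.7 mM Slc36a4 was without overlap (-0.52 ± 0.21, adjusted p = 0.31), and Slc38a7 was at -0.61 ± 0.25 (adjusted p = 0.317). Slc38a7 was called at 16.7 mM without PCBP2KO replicate 4 (-0.91, adjusted p = 0.0315) and without the 3 libraries that stood apart (-0.77, adjusted p = 0.0157), and at 2.8 mM when only the groups compared were fitted (-0.60, adjusted p = 0.0466). The median log2 fold change of the tested members was -0.16 at 2.8 mM and -0.21 at 16.7 mM, beside 0.03 and 0.01 over all genes. The glucose comparison in control cells and the genotype comparison at 16.7 mM share the control samples at 16.7 mM, and those at 2.8 mM are shared likewise, so the values of the comparisons are not independent.

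No member was called for a difference in its glucose response between genotypes. The interaction of genotype and glucose was called for 0 of the 39 tested members by edgeR and also by DESeq2, 1 member had an unadjusted p under 0.05, and 0.00439% of all genes were called. The smallest adjusted p was 1.0. For Slc7a3, Slc7a11 and Slc43a2, which were called for glucose in PCBP2KO cells only, the differences of the log2 fold changes were 0.82 ± 0.78, 0.44 ± 0.46 and 0.33 ± 0.30, so a difference between genotypes was not shown. With standard errors of this size the data do not show that the responses were alike either.

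Other genes of amino acid handling were counted beside the transporters, from lists chosen with earlier results of these data known. Of 26 genes of the amino acid response through ATF4, 1 rose (Ddit4) and 4 fell with glucose in control cells (Mthfd2, Ddit3, Eif4ebp1 and Ppp1r15a), and 1 rose (Pycr1) and 8 fell in PCBP2KO cells. Those that fell were 15.4 and 30.8% of the list, beside 6.69 and 10.4% of all genes, and the one that rose was 3.85%, beside 7.15 and 13.4%. The median log2 fold change of this list was -0.38 and -0.29. Mthfd2, a mitochondrial enzyme of folate metabolism, had log2 fold changes of -0.79 ± 0.15 (adjusted p = 0.00278) and -0.75 ± 0.13 (adjusted p = 0.00029), and Eif4ebp1, an inhibitor of translation, of -0.92 (adjusted p = 0.00515) and -1.0 (adjusted p = 0.000221). In the genotype comparisons Cth, which makes cysteine from cystathionine, was lower in PCBP2KO cells, by -2.45 at 2.8 mM (adjusted p = 0.00117) and -1.61 at 16.7 mM (adjusted p = 0.0259). It was the only gene of the list called, 3.85% at each glucose level, beside 2.04 and 1.71% of all genes.

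Of 27 tested genes of lysosomal amino acid sensing and mTORC1, 1 rose and 4 fell with glucose in control cells and 2 rose and 5 fell in PCBP2KO cells, with medians of -0.09 and -0.15. The share that fell was 14.8 and 18.5%, beside 6.69 and 10.4% of all genes. The share that rose, 3.7 and 7.41%, was below the 7.15 and 13.4% of all genes. Castor2, of the family of cytosolic arginine sensors, rose (1.21, adjusted p = 0.000758, and 1.38, adjusted p = 8.13e-06), while Lamtor1, which anchors the Ragulator complex to lysosomes, fell (-0.88, adjusted p = 0.00222, and -0.93, adjusted p = 8.44e-05). Fnip1, Flcn and Rragd fell in both genotypes as well. In the genotype comparisons 1 gene of this list was called, lower in PCBP2KO cells at 2.8 mM (3.7%, beside 2.04% of all genes). Of 30 genes of amino acid metabolism, 2 rose and 4 fell in control cells and 5 rose and 4 fell in PCBP2KO cells, with medians of 0.19 and 0.03. For those that rose the shares were 6.67 and 16.7%, beside 7.15 and 13.4% of all genes, close in both genotypes. Those that fell were 13.3% in each genotype, beside 6.69 and 10.4%, close to all genes in PCBP2KO cells. The latter included the glutamine synthetase Glul (-1.78, adjusted p = 0.00385, and -2.09, adjusted p = 9.00e-05) and Ass1, which recycles citrulline to arginine (-2.30, adjusted p = 0.00196, and -2.34, adjusted p = 0.000104). The branched-chain aminotransferase Bcat1 was lower in PCBP2KO cells by -5.20 at 2.8 mM (adjusted p = 6.42e-05) and -3.68 at 16.7 mM (adjusted p = 0.000744). It was 1 of 2 metabolism genes called between genotypes at each glucose level (6.67%, beside 2.04 and 1.71% of all genes).

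Of 21 tested amino acid carriers that the rule did not take, 4 rose and 3 fell with glucose in control cells and 1 rose and 3 fell in PCBP2KO cells, with medians of 0.19 and -0.03. Those that rose were 19.0 and 4.76% of the list, beside 7.15 and 13.4% of all genes, the second below the share of all genes. Those that fell were 14.3% in each, beside 6.69 and 10.4%. The 3 that fell were the same in both, namely the lysosomal cystine carrier Ctns (-0.89, adjusted p = 0.000896, and -1.02, adjusted p = 1.33e-05), Slc15a4, which exports histidine and small peptides from lysosomes (-1.05, adjusted p = 0.00441, and -1.30, adjusted p = 6.32e-05), and the mitochondrial glycine carrier Slc25a38 (-0.95, adjusted p = 0.00166, and -0.83, adjusted p = 0.000265). In the genotype comparisons the creatine carrier Slc6a8 was lower in PCBP2KO cells, by -1.43 at 2.8 mM (adjusted p = 0.00546) and -1.86 at 16.7 mM (adjusted p = 0.000356). It was the only carrier of this list called at 2.8 mM (4.76%, beside 2.04% of all genes). At 16.7 mM it was 1 of 2 called (9.52%, beside 1.71%).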

How the data were processed

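Sorted β cells were profiled by RNA-seq in 17 samples. Paired-end reads were quantified by the authors with Kallisto on GRCm39 (mm39 in the submitters' processing notes), and the deposited tables give estimated counts and TPM for each of 142376 transcripts, per the file headers. The version of Kallisto was not given in the sources used here. Islets were held at an intermediate glucose for several days before the 2.8 or 16.7 mM culture. The study's own fit also held a batch term, whose levels were not given in the sources used here, so no batch term was fitted.

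Estimated counts were summed per gene, rounded to whole numbers and tested with edgeR 4.0.16 in R 4.3.3 (filterByExpr, TMM, quasi-likelihood test) with 1 mean for each of the 4 groups over all 17 samples. A gene was called at a Benjamini-Hochberg adjusted p under 0.05 over all genes tested and a fold change over 1.5. The interaction of genotype and glucose was a contrast in the same fit. The test returns no SE, so each SE was derived as the absolute log2 fold change divided by the square root of the F statistic. Log2 CPM for the principal components used a prior count of 2. The deposited TPM were summed per gene for levels within a group and for ratios within a sample. The fit was tried on simulated counts before use, with the same spread for all genes and changes only in genes over 1 CPM. The simulation held no libraries that stood apart, so it does not cover these or scarce genes.

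Alternatives were DESeq2 1.42.0, its size factors, total-count scaling, no filter, protein_coding transcripts only, counts rebuilt from TPM, fits of the compared groups alone, no minimum fold, each library left out, and the replicate number as a block. Leaving out the 3 libraries that stood apart was chosen after seeing the data. Deviations of same-numbered control samples at the 2 glucose levels correlated at 0.199, 0.123 and 0.258, each over the limit of 0.1. These numbers were therefore treated as pairs, as a reading of the data and not of the labels. Pairing is not shown by this, because differently numbered samples were not compared. The block was fitted for the other comparisons too, although some of their pairs fell under the limit. Between glucose levels these were PCBP2KO replicates 1 (0.066) and 4 (0.075). Between genotypes they were replicate 1 at 2.8 mM (0.047) and replicates 1 (0.084) and 3 (0.047) at 16.7 mM. Replicates 4 of the 2 genotypes at 16.7 mM, which both stood apart, correlated at 0.354. Control replicate 4 at 16.7 mM has no partner in the block fit and so adds nothing there to the glucose change in control cells.

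Members and gene lists were chosen with earlier results of these data known. Values are given for every member called in at least 1 comparison and, called or not, for Slc3a1, Slc3a2, Slc7a1, Slc7a2, Slc7a5, Slc7a11, Slc1a5, Slc38a2, Slc38a9 and Slc36a4. Slc38a3, Slc38a5 and the transcripts described were singled out after their values were seen. Promoter sequences were read from the GRCm39 genome at the start of the most abundant transcript.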

Additional observations from a re-analysis of the deposited data

Results flagged for a closer look

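Single samples were examined for their distance from the rest of their group with Dixon's test at the 95% level, over 69 groups of 4 or 5 samples from 23 members, and 6 stood out. Chance alone would mark about 1 in 20 groups. Slc1a4 was 117 CPM in PCBP2KO replicate 5 at 2.8 mM, where the nearest sample had 97.9 CPM. Slc1a5 was 6.86 CPM in PCBP2KO replicate 2 at 2.8 mM, where the nearest had 3.38 CPM. Slc7a2 was 297 CPM in PCBP2KO replicate 5 at 16.7 mM, one of the libraries that stood apart, where the nearest had 130 CPM. In control replicate 3 at 16.7 mM Slc36a4 was 81.2 CPM, where the nearest had 61.6 CPM, and Slc38a6 was 64.8 CPM, where the nearest had 31.6 CPM. Slc38a5 was 41.4 CPM in PCBP2KO replicate 4 at 2.8 mM, where the nearest had 8.85 CPM.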

How the results depend on the processing

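Of the recomputed results, 2021 kept their direction and their side of the threshold, 34 gained a call, 38 lost one and 107 moved otherwise, and no called value reversed. The count of members called for glucose in control cells ranged from 7 to 14 when single libraries were left out, and that in PCBP2KO cells from 12 to 16. For the genotype comparison at 2.8 mM the count of 1 became 2 when only the compared groups were fitted and 2 with the replicate block, which added Slc7a3 (-0.88, adjusted p = 0.0432 by edgeR). At 16.7 mM it became 3 with the replicate block, which added Slc38a7 (-0.68, adjusted p = 0.00785) and Slc38a8 (1.5, adjusted p = 0.0255), and 2 without the 3 libraries that stood apart. In these block fits PCBP2KO replicates 4 and 5 at 2.8 mM and replicate 5 at 16.7 mM had no control partner and added nothing to the genotype difference. Replicate 5 held the lowest Slc38a8 value of PCBP2KO cells at 16.7 mM, 0.488 CPM. With single libraries left out the count at 16.7 mM ranged from 1 to 2. The cause of these changes was not tested. The replicate block raised the control glucose count to 14, as did leaving out control replicate 4 at 16.7 mM, and left the PCBP2KO count at 14. In the labels the samples of a block share only a number, with correlations from 0.047 to 0.354. DESeq2 called 14 members in each genotype, including Slc7a2 (-0.99, adjusted p = 0.0414), Slc7a11 (1.02, adjusted p = 0.0267) and Slc36a4 (0.72, adjusted p = 0.0391) in control cells. In control cells Slc7a4 (adjusted p = 0.0507), Slc38a6 (adjusted p = 0.0935) and Slc38a9 (adjusted p = 0.0649) lost their call when only the compared groups were fitted. With counts rebuilt from TPM, Slc38a9 lost its call in both genotypes (-0.59 and -0.49) and Slc43a2 in PCBP2KO cells (0.44). At the depth of these libraries, members under about 1 CPM, such as Slc38a8, rest on few counts per sample.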
